A study of Homo sapiens with 10 samples.

Results

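INSR, CACNA1A, SIRPA, PDYN, SOBP and LAMA4 are 6 genes that were picked because they lie in windows with the deepest shortage of γH2AX in K562 cells 1 h after irradiation. The choice rested on measured values, namely γH2AX at 1 h set against H2AX from untreated cells and against γH2AX at 24 h, and no numeric threshold was given. The genes touch 12 of the 27764 windows of 100 kb that could be analysed across the genome. Their shortage of γH2AX at 1 h is therefore a description of how they were chosen and was not tested. The HepG2 libraries and the H3K27me3 library were not used in the choice. HepG2 γH2AX was tested against HepG2 H2AX, and H3K27me3 against the K562 H2AX libraries, which did enter the choice.

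The measurements were made by CUT&RUN, in which a nuclease tethered to an antibody cuts out the DNA beneath the antibody's target, which is then sequenced. The K562 line derives from a human leukaemia and HepG2 from a human hepatocellular carcinoma. γH2AX was profiled in K562 that had received 6 Gy of ionising radiation from a cobalt source, 1 h (n = 2) or 24 h (n = 2) earlier, and in HepG2 treated likewise 1 h earlier (n = 1). H3K27me3 was profiled in irradiated K562 at 1 h (n = 1), and libraries titled H2AX came from untreated K562 (n = 2) and untreated HepG2 (n = 2). For these untreated libraries the antibody field reads histone H4 instead, so they are used as the untreated chromatin background of each line, whichever histone was bound. γH2AX of untreated cells was not analysed here, nor was H3K27me3 of untreated cells, of HepG2 or at 24 h, so the antibody and the irradiation cannot be told apart in any contrast with H2AX.

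Levels are given as the mean read depth over a region divided by the mean depth of the same library, so that a level of 1 is the genome average. Mean depth per base ran from 0.324 to 1.77 over the 10 libraries. The values of thin bins moved in steps of 60 bp in the K562 1 h γH2AX and H3K27me3 libraries and of 41 bp in the others; if the step is the read length, read length and group cannot be told apart for these 3 libraries. Replicate 1 of the 24 h libraries held a value of 0 in 36.2% of bins, against 2.16% to 4.19% in the other γH2AX and H2AX libraries, and results at 24 h are given for replicate 2 as well as for both. Bins at 0 lower the library mean, so levels of 24 h replicate 1 outside those bins may be raised, which was not tested. The labels do not say that replicates were separate cultures, so the spread between them may be technical. A level is an average over cells, and fewer cells carrying the mark cannot be told apart from less of it per cell.

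H2AX is a histone variant that is phosphorylated by damage-response kinases in chromatin on both sides of a DNA double-strand break, and the phosphorylated form, γH2AX, spreads along the chromosome and helps recruit repair factors. H3K27me3, trimethylation of histone H3 at lysine 27, is written by Polycomb repressive complex 2 and marks broad domains of silent genes, often genes that belong to another lineage. The 6 genes have different roles. INSR encodes the insulin receptor, a tyrosine kinase at the cell surface. CACNA1A encodes the pore-forming subunit of the P/Q-type voltage-gated calcium channel of neurons, and PDYN encodes prodynorphin, the precursor of opioid peptides. SIRPA encodes an inhibitory receptor of myeloid cells that binds CD47. SOBP encodes a nuclear zinc finger protein, and LAMA4 encodes a laminin alpha chain of basement membranes.

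INSR (chr19:7112266-7294011 in hg19, minus strand) and PDYN, described below, had the largest shortages of γH2AX. The INSR body stood at 0.410 and 0.272 in the 1 h libraries of K562, against 1.86 and 1.75 in the K562 H2AX libraries. The 2 groups did not overlap, and the 1 h level was 0.189 of the H2AX level. On the scale of log2(level + 0.05), which is used for all differences here, the gap between 1 h γH2AX and H2AX was -2.27, and 0.00360% of the 27764 windows lay lower. At 24 h INSR stood at 2.06 and 1.21, so replicate 2 was below both H2AX libraries and replicate 1 above them. H3K27me3 stood at 3.59. In HepG2 INSR was low in every library, at 0.682 for γH2AX and at 0.783 and 0.757 for H2AX.

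CACNA1A (chr19:13317256-13617274, minus strand) is the longest of the genes, at 300.02 kb. Its body stood at 0.543 and 0.417 at 1 h and at 1.77 and 1.63 in K562 H2AX, a difference of -1.73. Both 1 h libraries lay below both H2AX libraries. At 24 h its level was 1.99 and 1.23, H3K27me3 was 3.35, and HepG2 stood at 0.685 for γH2AX and at 0.809 and 0.816 for H2AX. As for INSR, K562 H2AX was above HepG2 H2AX, with a log2 difference of 1.02 for CACNA1A and 1.18 for INSR.

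SIRPA (chr20:1874813-1920540, plus strand) and PDYN (chr20:1959402-1974703, minus strand) are next to each other, and they share a window and a domain. SIRPA stood at 0.351 and 0.191 at 1 h and at 1.16 and 1.14 in K562 H2AX, a difference of -1.95. PDYN had the lowest 1 h levels of the 6 genes by group mean, at 0.233 and 0.197, against 1.21 and 1.08 in H2AX, a difference of -2.18 and a ratio of 0.188, next to the 0.189 of INSR. In neither gene did the 1 h and H2AX libraries overlap. At 24 h SIRPA stood at 1.45 and 0.896 and PDYN at 1.23 and 0.941. In HepG2 both were above the genome average, at 1.32 for γH2AX and 1.52 and 1.72 for H2AX in SIRPA, and at 1.36 and 1.78 and 1.48 in PDYN. Their H3K27me3 differed although the genes are neighbours, with a level of 1.86 over SIRPA, the lowest of the 6 genes, and 4.49 over PDYN, the highest. PDYN is 15.3 kb long and its body drew on an estimated 89 and 93 reads at 1 h, the fewest of the genes. Read numbers here are coverage divided by the step in bp, and hold only if the step is the read length.

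SOBP (chr6:107811162-107982513, plus strand) and LAMA4 (chr6:112429134-112575912, minus strand) had the smallest shortages of the 6. SOBP stood at 0.545 and 0.352 at 1 h and at 1.496 and 1.52 in K562 H2AX, a difference of -1.67. LAMA4 stood at 0.610 and 0.394 at 1 h and at 1.42 and 1.501 in H2AX, a difference of -1.48. The groups did not overlap in either gene. Of all windows, 0.317% lay lower than SOBP and 1.78% lower than LAMA4. At 24 h both libraries lay above both H2AX libraries, SOBP at 2.49 and 1.57 and LAMA4 at 2.67 and 1.55. Replicate 2 was only slightly above H2AX at both genes, and the higher replicate 1 is the library with many bins at 0. H3K27me3 was 4.37 over SOBP and 2.24 over LAMA4. In HepG2 LAMA4 stood at 1.61 for γH2AX and at 1.58 and 1.62 for H2AX, and SOBP at 0.932 for γH2AX and at 1.09 and 1.03 for H2AX.

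**Figure D1:**
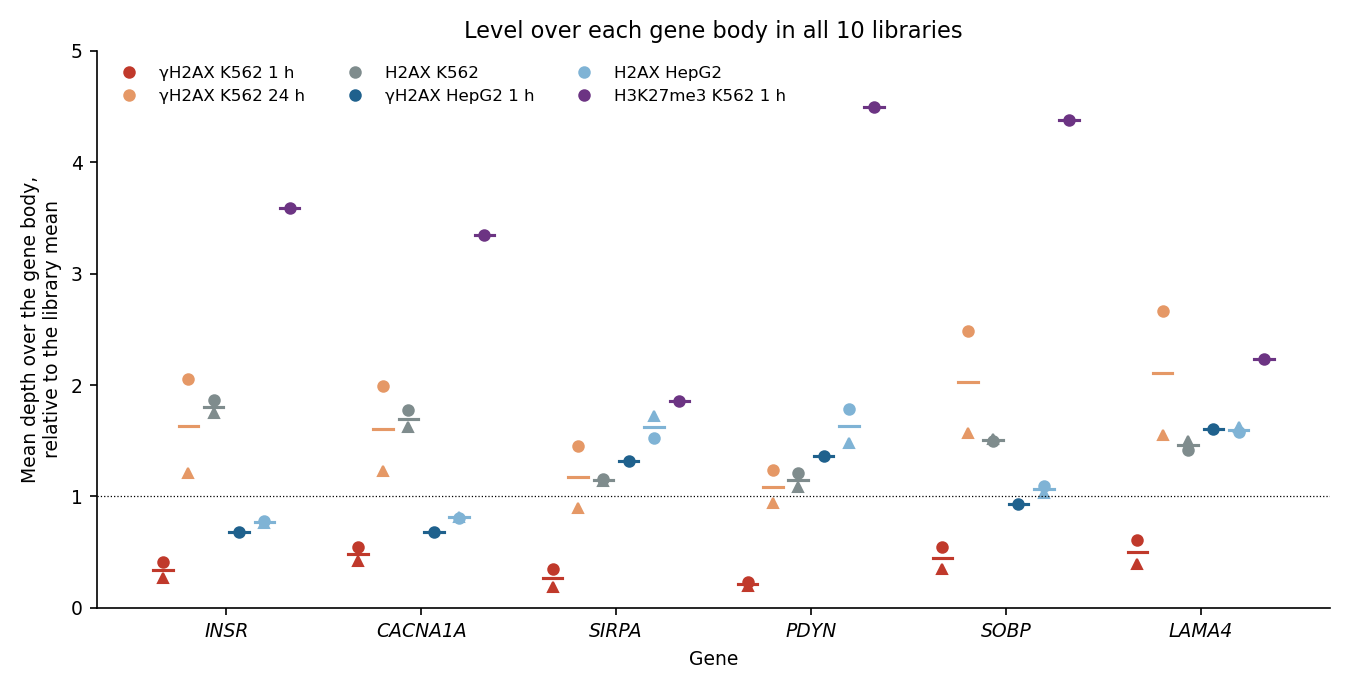
Mean read depth over each gene body relative to the library mean, in all 10 libraries; circles are replicate 1, triangles replicate 2, short lines the group means, and the dotted line the genome average. The 1 h γH2AX libraries of K562 sit between 0.191 and 0.610, below every other library at every gene, and H3K27me3 runs from 1.86 at SIRPA to 4.49 at PDYN.

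Across the 6 bodies the median difference between 1 h γH2AX and H2AX in K562 was -1.84, where the median of all windows was 0.06 and the lowest 5% of windows began at -1.35. In the order INSR, PDYN, SIRPA, CACNA1A, SOBP and LAMA4, the replicate ranges of neighbours overlapped. INSR, for example, was -2.01 in replicate 1 and -2.53 in replicate 2, and PDYN was -2.08 and -2.27. Replicate 2 was the lower at all 6 genes. The shortage ran through most bins of each gene. Both 1 h libraries were below both H2AX libraries in 181 of the 183 bins of 1 kb in INSR, 281 of 301 in CACNA1A, 43 of 47 in SIRPA, 15 of 16 in PDYN, 161 of 172 in SOBP and 132 of 147 in LAMA4. Over the genome this held for 34.0% of bins, and in the limma fit 18.0% of all features were lower at 1 h than in H2AX and 0.522% higher, but the genes were chosen by this contrast and nothing is read from the comparison. A 1-kb bin with both 1 h libraries above both H2AX libraries occurred once, in CACNA1A.

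The 1 h level set against 24 h, which also entered the choice, differed by -2.09 at PDYN, -2.08 at INSR, -2.05 at SOBP, -1.95 at LAMA4, -1.94 at SIRPA and -1.62 at CACNA1A. The median was -2.00 with both 24 h replicates and -1.66 with replicate 2 alone, and in the limma fit 35.6% of all features were lower at 1 h than at 24 h and 11.3% higher. This contrast shares the 1 h libraries with the one above. In replicate 1 of 24 h, 0% of the bins of INSR, SIRPA and PDYN, 2.33% of those of CACNA1A, 1.74% of SOBP and 1.36% of LAMA4 were at 0, against 34.8% of the genome's bins. The gene bodies lie almost wholly outside the stretches where that library has no signal. Downstream of CACNA1A 71.3% of flank bins were at 0 and upstream of SOBP 66.3%, and there 1 h γH2AX was above its library mean. Upstream of INSR 70.3% were at 0, where H2AX itself was low. The 1 h and 24 h libraries entered the choice, so nothing is read from the low share at the genes. Levels of 24 h replicate 1 over the genes may be raised by division by a mean that includes bins at 0, so the replicate 2 values are the safer ones. By 24 h replicate 2 the distance from H2AX was -0.55 at INSR, -0.45 at CACNA1A, -0.34 at SIRPA, -0.27 at PDYN, 0.06 at SOBP and 0.09 at LAMA4. The lowest 5% of windows began at -0.44 in this measure and the median window was at 0.05. INSR and CACNA1A were within the lowest 5% and SOBP and LAMA4 near the median. Both 24 h γH2AX and K562 H2AX entered contrasts that chose the genes, so these places are a description and nothing is read from them. With both 24 h replicates the distances ran from -0.18 at INSR to 0.47 at LAMA4.

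H3K27me3 was above the genome average at all 6 genes, and the K562 H2AX level was too, so the mark was tested against H2AX. Relative to H2AX, H3K27me3 was higher at PDYN by 1.93 (95% interval 1.32 to 2.53, adjusted p = 0.000831 in limma), at SOBP by 1.51 (0.66 to 2.35, adjusted p = 0.00952 in limma) and at CACNA1A by 0.96 (0.18 to 1.74, adjusted p = 0.0357 in limma). The differences were 0.97 at INSR (adjusted p = 0.0503 in limma), 0.67 at SIRPA (adjusted p = 0.163) and 0.60 at LAMA4 (adjusted p = 0.188), and these did not pass. The count of 3 of 6 gene bodies stands against 19.4% of all 27781 features that were higher and 50.0% that were lower. The median difference was -1.26 over the 100-kb windows and 0.97 over the genes. The single H3K27me3 library took its error from the groups with replicates. As many as 3 settings moved the count to 6 of 6: scaling by the median of ratios, leaving 24 h replicate 1 out of the fit, and fitting the compared groups alone. The call at CACNA1A was lost without either K562 H2AX replicate (adjusted p = 0.0903 and 0.121 in limma), where over all 10 alternatives it ran from 1.62e-27 to 0.121.

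The mark was spread unevenly within the genes. It reached 2 times its library mean in 93.8% of the 1-kb bins of PDYN, 92.4% of SOBP and 85.8% of INSR, in 67.4% of CACNA1A, and in 46.3% of LAMA4 and 40.4% of SIRPA, against 17.1% of bins over the genome. LAMA4 had 15 of its 16 windows of 10 kb below -1 for γH2AX at 1 h, and H3K27me3 over the 16 had a median of 1.74. SIRPA had all 6 of its windows between -2.35 and -1.80, and H3K27me3 in them went from 1.297 to 5.61. These 2 genes are low in the mark only beside the other 4. The median 100-kb window had H3K27me3 of 0.380, and 15.3% of windows were higher than the LAMA4 body and 19.5% higher than the SIRPA body. The 1 h level over SIRPA, 0.271, was as low as over its flanks, 0.268 and 0.254, where H3K27me3 was higher, at 3.36 and 3.80. In CACNA1A H3K27me3 went from 0.656 to 6.41 over the 31 windows of the body, and the window with the smallest γH2AX shortage, -0.78, had H3K27me3 of 2.22.

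Around the 3 kb at the gene start, H3K27me3 was 7.34 at SOBP, 5.67 at PDYN, 5.59 at CACNA1A, 4.92 at LAMA4, 3.16 at INSR and 2.19 at SIRPA. In 5 of the 6 genes the level at the start exceeded that of the body, as at LAMA4, where the body stood at 2.24. The exception was INSR, at 3.16 against 3.59 for the body, though the 10-kb window that holds its start stood at 4.04. γH2AX at 1 h was low at the starts as well, from 0.0502 and 0.162 at PDYN to 0.430 and 0.385 at LAMA4. These windows drew on few reads, an estimated 5 and 19 for PDYN at 1 h, so no start is ranked against another for γH2AX.

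To show how far the starts differ in CpG content, the 250 bases before the start are given for the CpG-richest and the CpG-poorest genes. They come from RefSeq on GRCh38.p14, not the build of the data, so their distance from the hg19 gene ends used above was not compared. Sequences were found for 5 of the 6 genes. Read 5′ to 3′ in the direction of transcription, with each CG dinucleotide in capitals, the stretch before SOBP (chr6:107489867-107490116, plus strand), that before INSR (chr19:7294415-7294664, minus strand), that before PDYN (chr20:1994286-1994535, minus strand) and that before LAMA4 (chr6:112254568-112254817, minus strand) are as follows.
SOBP: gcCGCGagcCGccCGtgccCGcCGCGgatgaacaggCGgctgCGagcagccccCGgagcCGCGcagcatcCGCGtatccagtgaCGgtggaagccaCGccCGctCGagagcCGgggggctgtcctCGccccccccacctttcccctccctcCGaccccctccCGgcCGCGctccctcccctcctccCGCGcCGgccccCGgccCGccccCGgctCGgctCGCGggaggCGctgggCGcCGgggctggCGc
INSR: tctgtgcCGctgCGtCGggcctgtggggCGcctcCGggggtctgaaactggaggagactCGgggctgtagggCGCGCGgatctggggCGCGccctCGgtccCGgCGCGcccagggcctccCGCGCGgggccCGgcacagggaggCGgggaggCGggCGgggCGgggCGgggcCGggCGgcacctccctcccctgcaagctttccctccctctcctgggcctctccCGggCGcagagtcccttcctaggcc
PDYN: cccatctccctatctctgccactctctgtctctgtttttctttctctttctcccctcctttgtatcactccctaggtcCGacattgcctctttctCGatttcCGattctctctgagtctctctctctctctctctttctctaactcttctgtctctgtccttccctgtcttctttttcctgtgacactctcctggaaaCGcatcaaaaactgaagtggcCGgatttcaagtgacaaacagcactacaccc
LAMA4: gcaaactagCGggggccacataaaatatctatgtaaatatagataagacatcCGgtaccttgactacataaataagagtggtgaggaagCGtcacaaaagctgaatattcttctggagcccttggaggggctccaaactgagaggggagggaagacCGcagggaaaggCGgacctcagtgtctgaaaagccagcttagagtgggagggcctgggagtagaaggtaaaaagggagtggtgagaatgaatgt

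SOBP held 37 CG dinucleotides in these 250 bases and INSR 28, against a median of 11 over 35116 RefSeq promoters, and 3.998% and 15.9% of those promoters held at least as many. CACNA1A held 17. PDYN and LAMA4 held 5 each, and 65.7% of promoters held at least as many. The G+C content was 81.2% at SOBP, 78.4% at INSR, 58.8% at CACNA1A, 48.4% at LAMA4 and 47.2% at PDYN, against a median of 58.0%. The counts thus span both sides of the median. From the most CG dinucleotides to the fewest, the H3K27me3 level at the start was 7.34 at SOBP, 3.16 at INSR and 5.59 at CACNA1A. It was 5.67 at PDYN and 4.92 at LAMA4, which tie for the fewest. A dinucleotide count is a description of the letters, and DNA methylation was not measured.

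**Figure D2:**
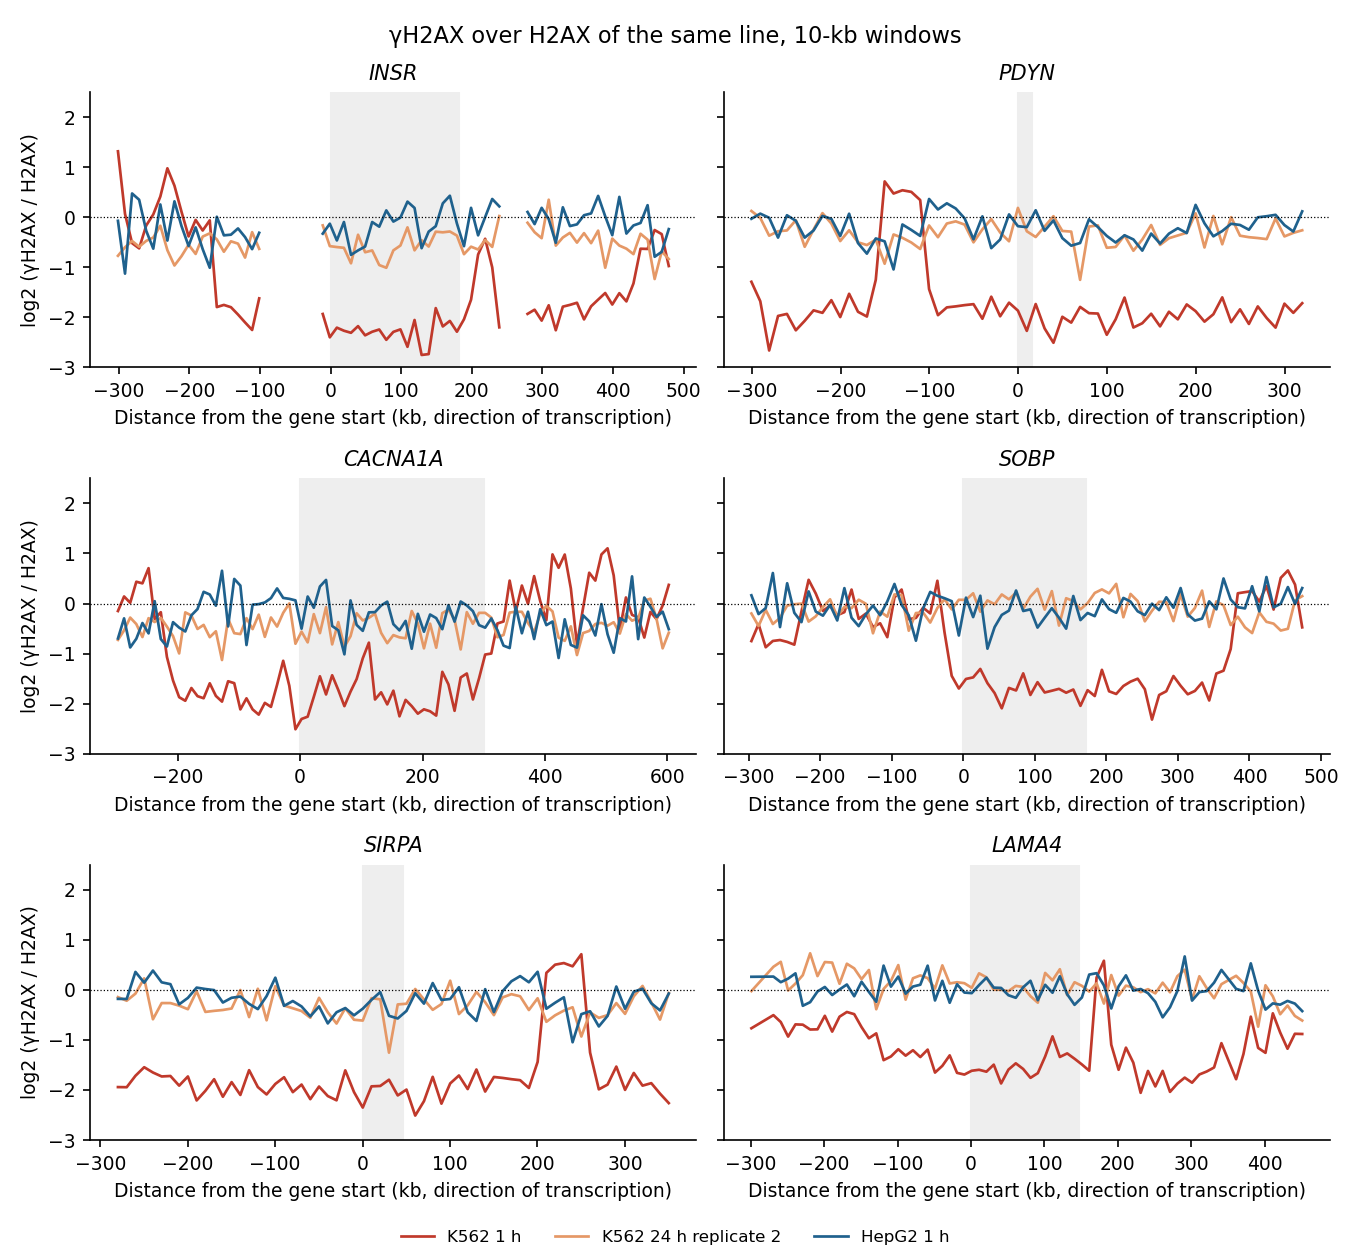
γH2AX over H2AX of the same cell line in 10-kb windows, as the log2 difference, against distance from the gene start in the direction of transcription; grey marks the gene body, and gaps are windows with little H2AX signal. The K562 1 h line is below -1 over nearly all of each body and stays above -1 beyond both ends of the SOBP and CACNA1A domains; it also rises above 0, for 5 windows near SIRPA and PDYN and 2 windows downstream of LAMA4, in gaps after which it falls back below -1, whereas the lines of 24 h replicate 2 and HepG2 vary around or a little below 0.

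The shortage reached beyond the genes. Run outward from each body, the stretch of 10-kb windows with a γH2AX-to-H2AX difference below -1 covered chr19:7090001-7330000 at INSR (240 kb), chr19:13310001-13840000 at CACNA1A (530 kb), chr20:1590001-2080000 at SIRPA and PDYN together (490 kb), chr6:107790001-108180000 at SOBP (390 kb) and chr6:112410001-112700000 at LAMA4 (290 kb). The body counts as inside whatever its level, and 19 of 19 body windows were below -1 at INSR, 30 of 31 at CACNA1A, 6 of 6 at SIRPA, 3 of 3 at PDYN, 18 of 18 at SOBP and 15 of 16 at LAMA4. Run outward in the same way for H3K27me3 of at least 2, the stretch spanned 190 kb at INSR, 320 kb at CACNA1A, 270 kb at SIRPA, 170 kb at PDYN, 380 kb at SOBP and 180 kb at LAMA4. Within these, 18 of 19 body windows reached 2 at INSR, 3 of 3 at PDYN and 17 of 18 at SOBP, but 23 of 31 at CACNA1A, 3 of 6 at SIRPA and 7 of 16 at LAMA4. For the last 3 genes the length is therefore partly that of the gene and not of an unbroken run of the mark. By RefSeq order the neighbours of the genes are ZNF557 and ARHGEF18 for INSR, IER2 and YJU2B for CACNA1A, SIRPG and STK35 for the pair SIRPA and PDYN, PDSS2 and SCML4 for SOBP, and FAM229B and RFPL4B for LAMA4.

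Several borders were steep. On the right of the SIRPA and PDYN stretch, past the STK35 side of PDYN, 1 h γH2AX was 0.331 in the last 30 kb inside and 1.90 in the first 30 kb outside. H2AX was 1.19 inside and 1.35 outside, and H3K27me3 went from 4.18 to 0.157. HepG2 γH2AX at the same border was 2.31 inside and 1.63 outside, and the 24 h replicate 2 level was 1.00 inside and 0.935 outside. H3K27me3 thus stepped down where 1 h γH2AX stepped up. This border is the edge of a gap, not the end of the shortage. The difference from H2AX was between 0.34 and 0.71 in 5 windows of 10 kb, with H3K27me3 between 0.106 and 0.194, and then fell back to -1.25 and -1.99 in the next windows, with H3K27me3 of 3.71 and 6.59.

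On the left of SOBP, 21.2 kb before its start, 1 h γH2AX went from 0.513 inside to 1.51 outside and H3K27me3 from 6.07 to 0.555, with H2AX at 1.58 and 1.55. There 24 h replicate 2 went from 1.60 to 1.41 and HepG2 γH2AX from 0.921 to 1.08. On the right of the CACNA1A stretch 1 h γH2AX went from 0.552 to 1.97 and H3K27me3 from 3.71 to 0.124, while 24 h replicate 2 went from 0.941 to 1.45 and HepG2 γH2AX from 0.540 to 0.576. The 24 h and HepG2 levels thus had no common direction over these borders. On the downstream side of LAMA4 1 h γH2AX went from 0.544 to 1.84, and H3K27me3 from 1.96 to 0.9751. This too was a short gap, of 2 windows, beyond which the difference from H2AX was -1.10 and -1.60 in the next windows. The 30 kb outside therefore takes in the first window beyond the gap, where H3K27me3 was 2.54. Within the gap itself H3K27me3 was 0.291 and 0.0897. Other ends were gradual. The upstream end of LAMA4 went from 0.496 to 0.654 only, and the left end of the CACNA1A stretch from 0.538 to 1.11. The right end of INSR and the left end of the SIRPA and PDYN stretch lie where H2AX itself falls to 0.0536 and 0.0280, so no border can be read there. Past the low-H2AX windows right of INSR, the difference from H2AX was again -1.62 and -2.26. The left end of INSR was a short gap as well, with -0.75 and -0.43 in the first windows outside and then -1.005 and -2.20. The 240 kb at INSR is thus an unbroken run and not the full extent of the shortage. The last windows of that run on the right had K562 H2AX of only 0.182 and 0.141.

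**Figure D3:**
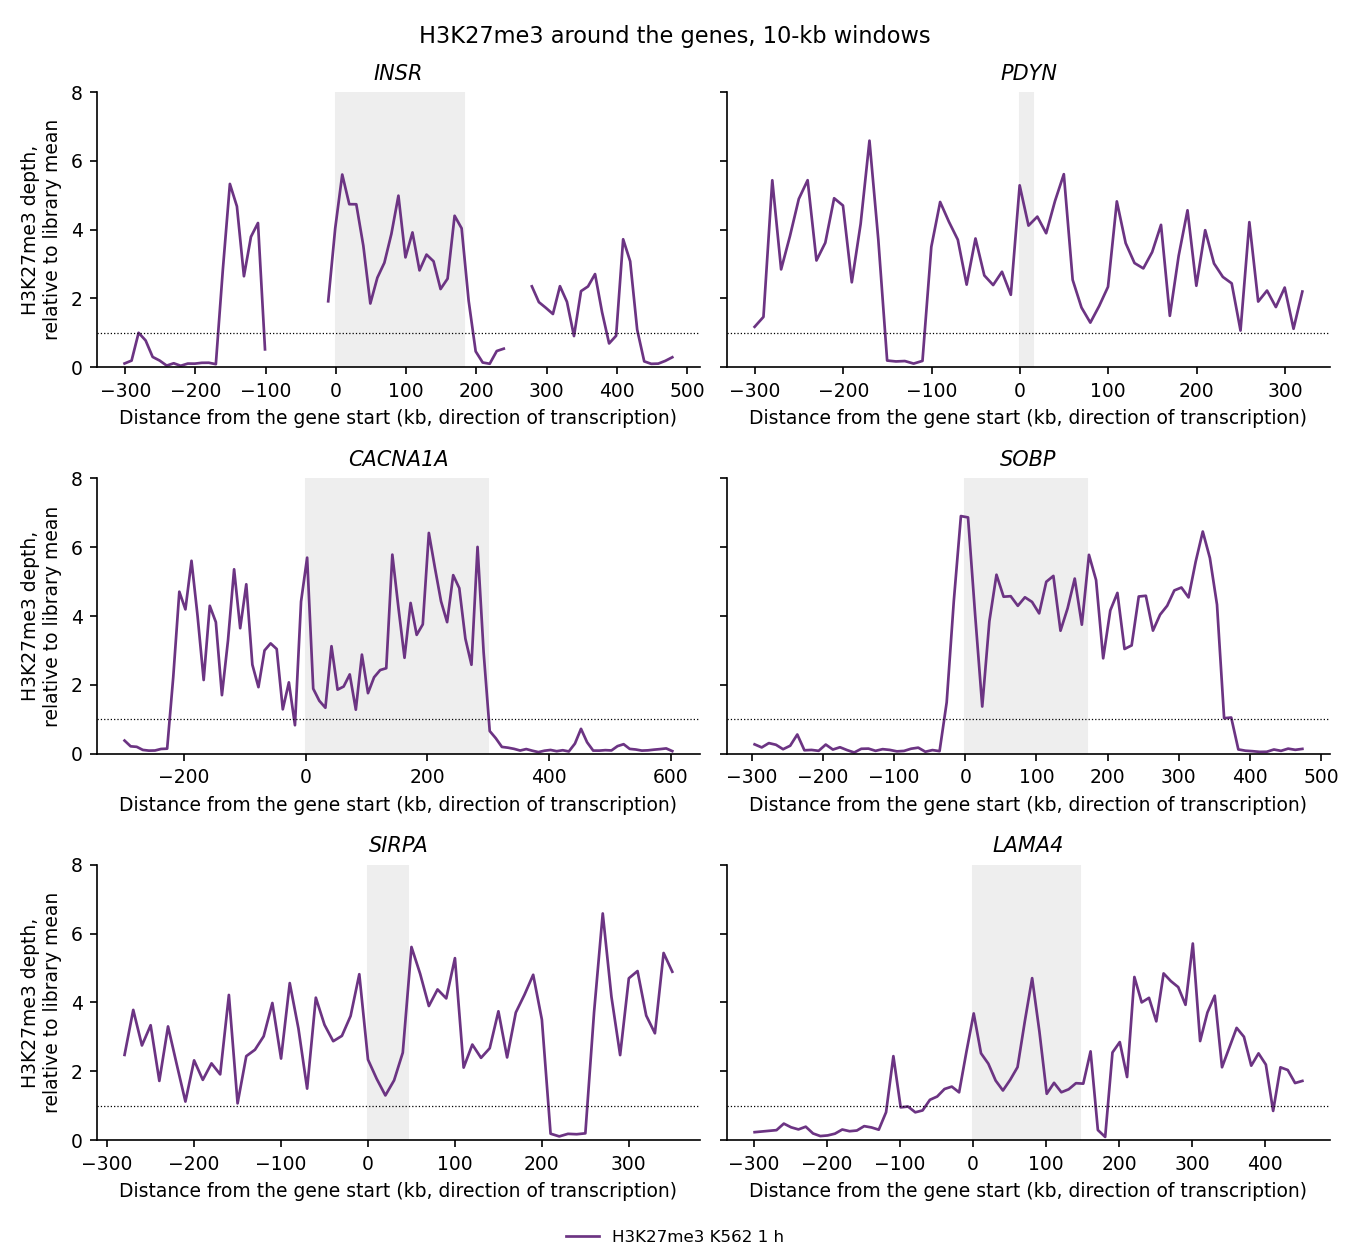
H3K27me3 depth relative to the library mean in 10-kb windows around each gene, in the 1 library of irradiated K562, against distance from the gene start; grey marks the gene body and the dotted line the genome average. The mark falls from 3 or more to near 0 at the ends of the SOBP and CACNA1A domains and inside a gap upstream of PDYN, and it is lower over SIRPA and LAMA4 than over the other bodies.

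The flanks of 100 kb on either side differed among the genes. At CACNA1A the downstream flank stood at 1.38 and 1.91 for 1 h γH2AX and at 1.75 and 1.57 for H2AX, with H3K27me3 at 0.195, whereas the upstream flank stood at 0.485 and 0.375 for γH2AX with H3K27me3 at 2.79. At SOBP the upstream flank stood at 1.48 and 1.22 for γH2AX and the downstream flank at 0.526 and 0.307. Both flanks of SIRPA and both flanks of PDYN were also short of γH2AX, with differences from H2AX between -2.04 and -1.82, against -1.95 over the SIRPA body and -2.18 over the PDYN body. In the limma test of H3K27me3 against H2AX, the CACNA1A downstream flank was lower, with a difference of -2.80 (adjusted p = 0.00290), and the SIRPA, PDYN and SOBP downstream flanks, as well as the upstream flanks of SIRPA and PDYN, were higher by 1.46 to 1.71 (adjusted p 0.00272 to 0.0139). The downstream flank of LAMA4 was higher by 0.60 (adjusted p = 0.0387 in limma). The flanks of SIRPA and PDYN overlap each other and the neighbouring gene, so they are not separate regions.

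Over the 10-kb windows of body and flanks, H3K27me3 and the γH2AX-to-H2AX difference were inversely ordered. Spearman's rho was -0.730 at CACNA1A (51 windows), -0.640 at INSR (29), -0.614 at SOBP (38) and -0.583 at LAMA4 (36). It was weaker at PDYN, -0.246 over 23 windows, and at SIRPA, -0.194 over 26 windows, whose flanks hold no border. These coefficients describe windows that share libraries and neighbours, and they are given without a test. In the genome, 4931 windows of 100 kb had H3K27me3 of at least 2, and 62.9% of these were below -1 for γH2AX at 1 h, against 8.65% of the others.

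In HepG2, γH2AX at 1 h lay close to H2AX at the 6 genes, and none passed the test. The difference between HepG2 γH2AX and HepG2 H2AX was -0.28 at SIRPA, -0.25 at PDYN, -0.23 at CACNA1A, -0.18 at SOBP, -0.16 at INSR and 0.01 at LAMA4. In the limma fit 0 of the 6 genes passed (adjusted p = 1.00 for each), where 0.0% of the 27781 features were higher and 0.0% lower and 113 had an unadjusted p under 0.05. The 95% intervals reached from -1.23 to 0.67 at SIRPA, from -0.86 to 0.35 at PDYN, from -1.01 to 0.55 at CACNA1A, from -1.03 to 0.67 at SOBP, from -1.04 to 0.71 at INSR and from -0.91 to 0.92 at LAMA4. Of the windows, 8.17% were lower than SIRPA and 49.4% lower than LAMA4 in this measure, and the lowest 5% began at -0.33. When the HepG2 groups were fitted alone, on 1 library against 2, 4 of the 6 genes passed, SIRPA, PDYN, CACNA1A and SOBP (adjusted p 0.000142 to 0.0492 in limma), in a fit that called 3958 features higher and 4608 lower.

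The K562 difference of 1 h γH2AX from H2AX, minus the HepG2 one, was -2.11 at INSR, -1.92 at PDYN, -1.67 at SIRPA, -1.50 at CACNA1A and -1.49 at SOBP and at LAMA4. The K562 side of this difference chose the genes, so it is given without a test. Over all windows, the lowest and highest 5% began at -1.35 and 0.79 in K562 but at -0.33 and 0.26 in HepG2. HepG2 γH2AX thus varied less over the whole genome, and the differences between the lines are not read as particular to these genes. The H2AX background itself differed between the lines. K562 H2AX was above HepG2 H2AX by 1.18 at INSR, 1.02 at CACNA1A and 0.48 at SOBP, and below it at the others, with differences of -0.13 at LAMA4, -0.48 at SIRPA and -0.49 at PDYN. At INSR and CACNA1A 99.2% and 97.6% of windows had a smaller difference. The part of DNA copy number in these backgrounds was not tested.

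**Figure D4:**
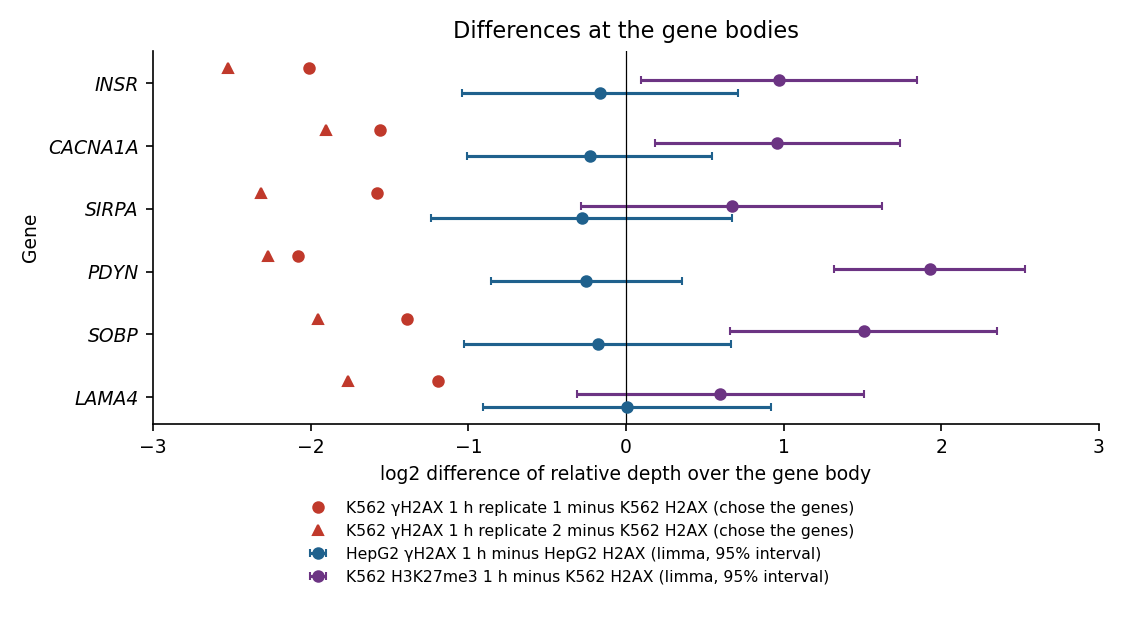
Log2 difference of relative depth over each gene body: K562 1 h γH2AX minus K562 H2AX for each 1 h replicate (red, the contrast that chose the genes), HepG2 γH2AX minus HepG2 H2AX (blue) and K562 H3K27me3 minus K562 H2AX (purple), the last pair with 95% intervals from limma. The red points lie between -2.53 and -1.19, all 6 blue intervals include 0, and the purple intervals of INSR, CACNA1A, PDYN and SOBP do not.

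The deposited peak lists were searched over the same genes. None of the 41947 and 46072 peaks that the authors called in the 2 K562 1 h libraries touched any of the 6 gene bodies, and none of the 8, 13 and 170 peaks of the 24 h and HepG2 lists did. Of the analysed 100-kb windows, 66.3% held no peak of either 1 h list, so the lack of a peak is common. The 1 h peaks were called on the libraries that chose the genes and that define the γH2AX-poor stretches. Their absence from both is therefore a description and not a separate result. The 1 h lists placed 7 peaks in the flanks, and 0 of these touched the γH2AX-poor stretches. CACNA1A had 1 peak in replicate 1 and 4 in replicate 2, all downstream, the nearest 61.7 kb from the gene. SOBP had 1 upstream, 49.2 kb away with a fold enrichment by the authors' caller of 1.83, and LAMA4 had 1 downstream, 34.5 kb away with a fold of 1.76, both in replicate 1 only. The q-values of these 7 peaks were between 0.104 and 0.380. The LAMA4 peak, at chr6:112393432-112394645, lies in the pair of 10-kb windows beyond the downstream border where 1 h γH2AX exceeded H2AX, by 0.25 and 0.58, with H3K27me3 at 0.291 and 0.0897.

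Outside the genes and their flanks, the windows whose levels were most like the median of the 6 bodies were sought over 9 libraries, leaving out 24 h replicate 1. They were chr9:128600001-128700000, with a root mean square log2 distance of 0.101, chr6:110600001-110700000 (0.133), chr15:44300001-44400000 (0.136), chr16:78200001-78300000 (0.163) and chr6:110700001-110800000 (0.169). The genes themselves were farther from their median, from 0.228 at SOBP to 0.473 at SIRPA. In the first of these windows 1 h γH2AX stood at 0.494 and 0.361, H2AX at 1.46 and 1.40, and H3K27me3 at 3.33. All 5 windows had H3K27me3 between 3.12 and 3.41 and a 1 h difference from H2AX between -1.81 and -1.49, as likeness over these libraries requires.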

How the data were processed

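Each deposited track gives coverage (mean depth of reads over a 1-kb bin, hg19) and was not scaled for depth. The tools listed, per the submitters' processing notes, are MACS2, SAMtools and BWA 0.7.12, without roles or settings. The deposited peak lists give each peak's fold enrichment, a ratio set by the authors' caller, and −log10 of its p-value and q-value; which control the fold used is not stated in the sources at hand.

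Coverage was averaged over gene bodies, flanks of 100 kb, 3 kb at the gene start and windows of 100 kb and 10 kb, and divided by the library mean. Differences are on log2(level + 0.05), which understates changes of low levels. Windows needed at least 50% of their bins and a mean of at least 0.25 over the 4 H2AX libraries. The limit of 0.25 was not applied to the 10-kb windows run outward from the genes. All 6 gene bodies passed, as did 17 of 18 bodies and flanks, the exception being the upstream flank of INSR. In R 4.3.3, limma 3.58.1 with a trend of variance on the mean was fitted to all 10 libraries with 6 group means and 4 residual degrees of freedom over 27781 features, with Benjamini-Hochberg adjustment and a threshold of 0.05. A group of 1 library took its spread from the groups with 2. The plan allowed for counts, but the tracks hold coverage, so the branch for other values was used. The fit was also run on simulated data, with noise drawn only from the K562 and HepG2 H2AX replicate pairs. The median standard deviation of the level over the genes was 0.0691 and 0.0363 in those pairs, against 0.567 at 24 h. The simulated run therefore does not show how the fit performs with the spread of these libraries.

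The genes, their coordinates and the tests were chosen with earlier results of these data known. All 6 genes are named. The windows most alike were the 5 nearest in log2 level over 9 libraries. Other steps used pandas 2.3.3, numpy 2.4.6 and scipy 1.17.1 under Python 3.11.15, with matplotlib 3.10.9 for plots. Alternatives covered pseudocounts, scaling, filters, window size, replicates left out, a replicate block and smaller fits.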

Additional observations from a re-analysis of the deposited data

How the results depend on the processing

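Of the single-gene values, 304 kept direction and side of the threshold, or stayed within the replicate spread, 14 gained and 3 lost a call, 13 moved and 2 reversed. The reversals were both at LAMA4 in HepG2, whose difference went from 0.01 to -0.14 with the replicate block and to -0.012 without H2AX replicate 1 (0.027 without replicate 2). With only the groups compared in the fit, the count of genes past the threshold went from 0 to 4 in HepG2 and from 3 to 6 for H3K27me3. Leaving out 24 h replicate 1 also gave 6 for H3K27me3, as did scaling by the median of ratios, which raised H3K27me3 by 1.23 on the log2 scale and turned 5384 higher and 13894 lower features into 10926 and 9026. The CACNA1A call for H3K27me3 was also lost with 10-kb windows as the other features (adjusted p = 0.0597 in limma), and INSR gained one with a pseudocount of 0.2 (adjusted p = 0.0350 in limma), where over its 10 alternatives it ran from 4.02e-26 to 0.146. The median H2AX difference between the lines went from 0.18 to 0.28 with median-of-ratios scaling and to 0.76 over whole 100-kb windows. The causes were not tested.

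Leaving out single replicates, the median difference of 1 h from H2AX ran from -2.11 to -1.57, of 1 h from 24 h from -2.30 to -1.66, of 24 h from H2AX from -0.30 to 0.27 and of K562 from HepG2 H2AX from 0.15 to 0.20. The counts ran from 0 to 0 in HepG2 and from 2 to 6 for H3K27me3. Without the filter 1 feature passed in HepG2, and none of the genes did.

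The groups tested share only 1 replicate number, and the deviations of same-numbered libraries correlated between -0.165 and 0.432 over group pairs, so the numbers were not taken as pairs. The replicate block left 0 genes past the threshold in HepG2 and 3 for H3K27me3. Counted once per gene, the median length of the γH2AX-poor stretches went from 440 to 455 kb at a limit of -0.5. That of the H3K27me3 stretches went from 230 to 240 kb at a level of 1.5. These medians count the γH2AX-poor stretch shared by SIRPA and PDYN for both genes. The H3K27me3 stretch of PDYN also lies inside that of SIRPA, so neither median is one over separate stretches. Depth limits the gene starts most, since a start drew on as few as an estimated 5 reads.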
